A study of Rattus norvegicus with 9 samples.

Results

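Mitochondrial fatty acid oxidation was followed through 10 genes chosen by name out of 20645 in the deposited table, namely Cpt1a, Cpt2, Slc25a20, Acadvl, Acadm, Hadha, Hadhb, Acaa2, Etfdh and Pdk4. The RNA came from INS-1E cells, an insulin-secreting line derived from a rat insulinoma, sequenced as 9 poly(A)-selected, strand-specific, paired-end libraries. The BSA group received fatty-acid-free bovine serum albumin for 24 h, the PA group received palmitic acid (a saturated fatty acid, 0.5 mM) for 24 h, and the PA + C3G group received the same palmitic acid together with cyanidin-3-O-glucoside (C3G, an anthocyanin, 50 µM) for 24 h, with 3 libraries per group. The doses are those of the study's methods, since the sample labels give none. The sample titles name only control, palmitic acid or cyanidin-3-O-glucoside treatment. That controls received BSA and that C3G was given together with PA is taken from the methods. All libraries came from 1 cell line, and no group received C3G without PA. The labels do not say whether replicates were separate cultures, while the study's methods speak in general of biological triplicates. The p-values set differences between groups against the spread between these samples. If the replicates came from the same culture, that spread is not a biological one.

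Long-chain fatty acids enter the mitochondrial matrix by way of carnitine. CPT1 on the outer membrane makes acylcarnitine, the carrier encoded by Slc25a20 takes it across the inner membrane, and CPT2 turns it back into acyl-CoA. Inside, acyl-CoA dehydrogenases, the trifunctional protein (Hadha and Hadhb) and thiolase (Acaa2) shorten the chain, ETF dehydrogenase (Etfdh) hands the electrons to the respiratory chain, and the kinase PDK4 holds back pyruvate dehydrogenase so that glucose carbon is spared. Long-chain fatty acids or their derivatives act in many tissues as ligands of the nuclear receptor PPARα, and several of these genes are known PPARα targets in liver and muscle. In beta cells the liver-type isoform CPT1A is the main form, and malonyl-CoA, which blocks it, couples glucose supply to fatty acid use.

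Hadha and Hadhb encode the partner subunits of the trifunctional protein and lie head to head on rat chromosome 6. In RefSeq (GRCr8) their start sites were 301 bases apart and faced away from each other. The first sequence below is the stretch between the start sites, chr6:31907501-31907800, written on the plus strand, from Hadhb on the left to Hadha on the right. The capitals mark the 200 bases that lie within 250 bases of both start sites. The next 3 sequences are the 250 bases before the start of Cpt1a (chr1:209995910-209996159, plus strand) and Slc25a20 (chr8:118243323-118243572, plus strand), which rose together with PA, and of Acadvl (chr10:55236706-55236955, minus strand), in which the capitals mark AGGTCA, the core hexamer bound by many nuclear receptors.
Hadhb-Hadha interval: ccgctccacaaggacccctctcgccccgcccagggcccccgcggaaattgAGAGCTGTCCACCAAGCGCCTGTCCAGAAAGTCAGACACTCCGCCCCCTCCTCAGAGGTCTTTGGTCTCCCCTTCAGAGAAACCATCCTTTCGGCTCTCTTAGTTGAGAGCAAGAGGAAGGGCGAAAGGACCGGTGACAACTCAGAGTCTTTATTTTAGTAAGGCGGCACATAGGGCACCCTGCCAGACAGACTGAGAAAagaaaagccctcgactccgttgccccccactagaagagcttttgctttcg
Cpt1a: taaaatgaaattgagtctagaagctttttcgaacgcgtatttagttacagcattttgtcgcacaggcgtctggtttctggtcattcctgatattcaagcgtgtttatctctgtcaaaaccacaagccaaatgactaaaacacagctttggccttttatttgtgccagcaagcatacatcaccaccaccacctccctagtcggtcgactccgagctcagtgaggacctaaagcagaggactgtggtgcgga
Slc25a20: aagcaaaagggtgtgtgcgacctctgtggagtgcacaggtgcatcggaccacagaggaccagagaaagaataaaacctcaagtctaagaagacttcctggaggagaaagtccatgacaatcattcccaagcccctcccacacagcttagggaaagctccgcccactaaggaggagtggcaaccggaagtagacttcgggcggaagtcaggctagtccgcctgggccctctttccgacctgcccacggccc
Acadvl: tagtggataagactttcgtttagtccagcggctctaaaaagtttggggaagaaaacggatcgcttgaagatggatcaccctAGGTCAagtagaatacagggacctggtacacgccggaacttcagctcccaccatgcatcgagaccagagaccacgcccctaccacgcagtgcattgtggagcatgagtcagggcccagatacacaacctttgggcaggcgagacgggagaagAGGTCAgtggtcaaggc

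RefSeq start-site windows, from 250 bases before to 50 bases after the start, were matched for 9 of the 10 genes, the exception being Acaa2. AGGTCA, on either strand, was found in 2 of these 9 windows and in 16.2% of the 33469 rat windows. Acadvl held it at 169 and at 17 bases before the start, and Hadhb held it on the opposite strand at 43 bases after its start, outside the stretch printed above. DR1, the PPAR-type direct repeat that holds the hexamer 2 times with 1 base between, was in 0 of 9 windows and in 0.0538% of all windows. TNAAGGTCA, a longer form of the hexamer bound by estrogen-related receptors, was in 0 of 9 and 1.2%, and the E-box CACGTG in 0 of 9 and 6.42%. These are letter matches in short windows only, and Cpt1a and Slc25a20 held none of the 4 motifs.

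The table gives each gene's estimated count and its FPKM, in which fragments are expressed per length of the gene and per mapped fragments in that library, and the levels below are FPKM. The counts summed to between 45559993 and 66730721 per library, and the 9 expressed genes had from 1435 counts (Acadm, the lowest) to 16238 counts (Hadha, the highest) in a library. Fold changes were fitted to the counts of all 9 libraries with edgeR's quasi-likelihood test over 12958 genes (those whose FPKM averaged 1 or more), and a change was called at a Benjamini-Hochberg adjusted p-value under 0.05. All 9 beta cell markers checked were expressed, with a summed FPKM of 48930 to 49650 in BSA, 22090 to 22610 in PA and 46490 to 52100 in PA + C3G. Of 6 acinar and duct markers, 4 were in the table, nearly all of their signal from Sox9 (the acinar enzymes Cela1 and Cpa1 averaged 0.00797 and 0.0141 FPKM), with sums of 2.60 to 2.72 in BSA, 4.64 to 6.04 in PA and 3.05 to 3.99 in PA + C3G. Of 6 fibroblast, endothelial and immune markers, 3 were in the table, with sums of 0.261 to 0.722 over all 9 libraries. Gcg and Ghrl, the 2 of 4 other islet markers in the table, summed to at most 31.9 in BSA, 7.01 in PA and 23.1 in PA + C3G. In such bulk RNA, a change in level per cell and a change in the share of cells expressing a gene cannot be told apart. Most of the beta cell sum came from Ins1, and the 9 markers did not move alike. Between PA and BSA 8 were lower and Nkx6-1 was not called, and between PA + C3G and PA all 9 were higher. Between PA + C3G and BSA 3 were higher and 3 lower, from 0.352 of BSA for Slc2a2 to 1.59-fold for Nkx6-1. The part of these shifts in the results below was not tested.

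In BSA-treated cells the genes were expressed at widely different levels. Hadha was highest at 81.5 ± 2.69 FPKM (SD, n = 3), followed by Hadhb, Cpt2, Acadvl, Acaa2, Slc25a20, Etfdh, Acadm and Cpt1a, the last at 13.1 ± 0.461 FPKM. Neighbours in this order had non-overlapping libraries except Slc25a20 and Etfdh. With PA the order became Hadhb, Acaa2, Hadha, Slc25a20, Acadvl, Cpt1a, Cpt2, Etfdh and Acadm, in which Acaa2 overlapped Hadha, and Cpt1a, Cpt2 and Etfdh overlapped one another. With PA + C3G the top 3, Hadhb, Acaa2 and Hadha, overlapped, and below them came Slc25a20, Acadvl, Cpt2, then Cpt1a and Etfdh, which overlapped, and Acadm. The last of the 10, Pdk4, was at or near 0 in every group.

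**Figure D1:**
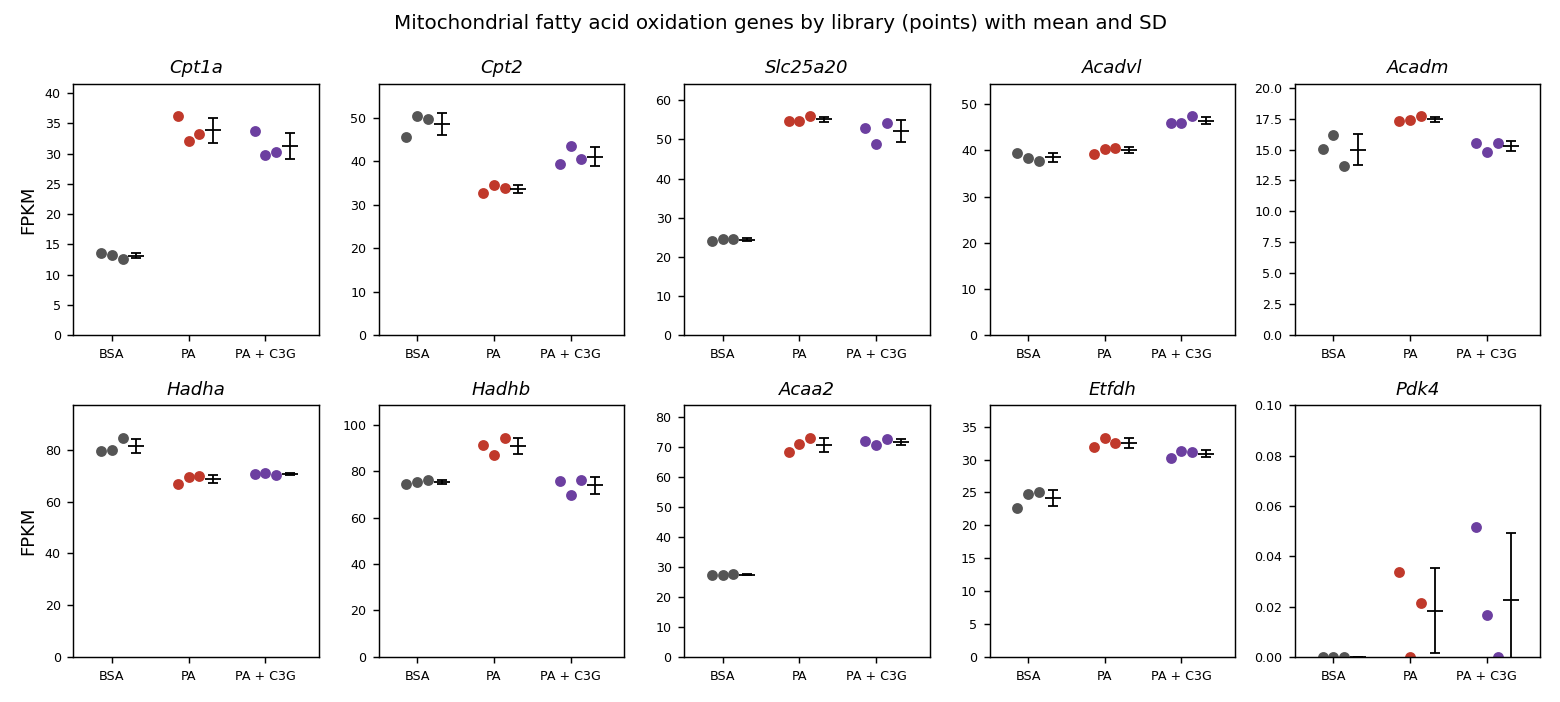
FPKM (y axis, linear from 0, with its own range in each panel) of the 10 genes in the 3 libraries (points) of the BSA, PA and PA + C3G groups, with the mean and SD beside them. Cpt1a, Slc25a20 and Acaa2 sat more than 2-fold above the BSA mean in all 6 libraries with PA, Cpt2 and Hadha sat below BSA in all 6, and the Pdk4 panel does not exceed 0.0518 FPKM.

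PA changed 8 of the 9 tested genes compared with BSA, 6 higher and 2 lower, where 51% of all tested genes were called, 25.8% higher and 25.2% lower. The 3 with a fold change above 2 were Acaa2, Cpt1a and Slc25a20, all higher. Of all tested genes, 7.56% changed by that much at an unadjusted p-value under 0.05, and 3.3% rose by that much. The median log2 fold change was 0.29 over the 9 genes and 0.00 over all tested genes. Libraries of the groups did not overlap in FPKM for 8 of the 9 genes, as for 59.9% of all tested genes. Between PA + C3G and PA, 3 of the 9 genes were called (all genes, 21.2%), Cpt2 and Acadvl higher (all genes, 11.1%) and Hadhb lower (all genes, 10.2%). None of the 9 differed more than 2-fold there, where 1.13% of all tested genes did and 0.702% were higher by that much. Their median log2 difference was −0.04 (all genes, 0.00), and 7 of the 9 did not overlap in FPKM (all genes, 39.5%). FPKM were used as deposited, without the scaling of the edgeR fit, and with limma on log2(FPKM + 1) the median was −0.07. Narrow gaps in FPKM therefore depend on the scaling. Between PA + C3G and BSA, 7 were called (all genes, 36.9%), 5 higher and 2 lower (all genes, 19% and 17.9%). Acaa2, Cpt1a and Slc25a20 again exceeded 2-fold (all genes, 4.63% in either direction and 1.86% higher), and 7 of the 9 did not overlap in FPKM (all genes, 50.3%). These comparisons share groups of libraries, so that they are not independent of one another.

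**Figure D2:**
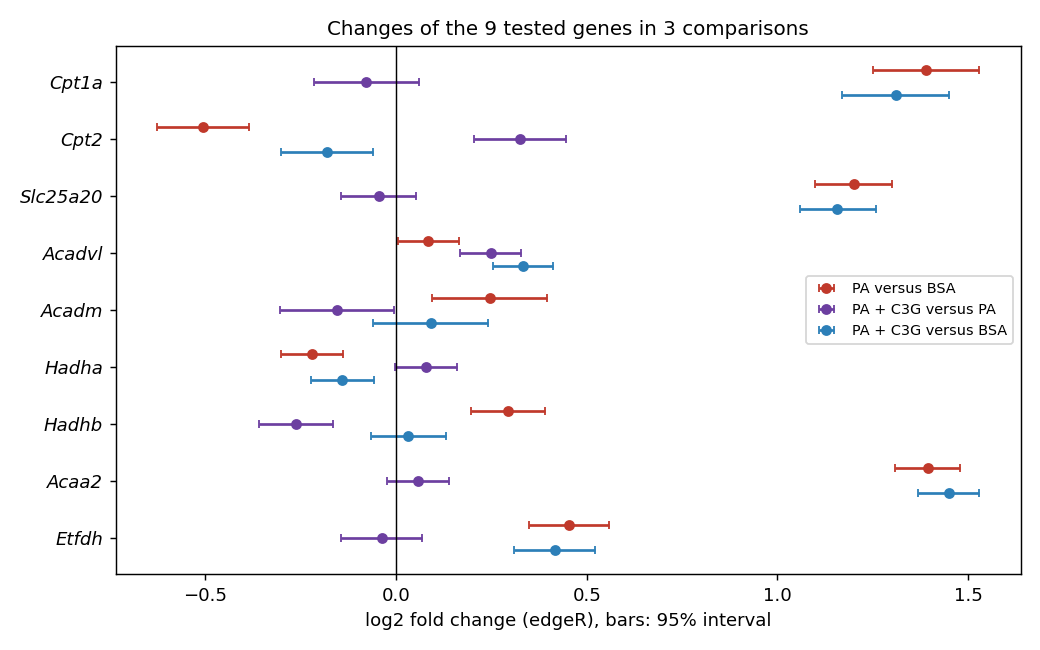
Log2 fold change (x axis) of the 9 tested genes in PA versus BSA, PA + C3G versus PA, and PA + C3G versus BSA, fitted by edgeR, with 95% intervals, not adjusted for the number of genes, as bars. Acaa2, Cpt1a and Slc25a20 lie above 1 with PA, with and without C3G, whereas the PA + C3G versus PA intervals of these 3 genes include 0.

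The carnitine shuttle did not move as a unit. Cpt1a, the malonyl-CoA-sensitive entry enzyme (ENSRNOG00000014254, chromosome 1, 218569510 to 218629678, plus strand of the authors' table), was at 13.5, 13.2 and 12.6 FPKM in the BSA libraries, 36.1, 32.2 and 33.2 in PA and 33.8, 29.7 and 30.3 in PA + C3G. All PA-treated libraries lay above all BSA libraries, and the libraries with and without C3G overlapped. Cpt1a rose 2.62-fold with PA (log2 1.39, SE 0.0627, adjusted p = 1.54e-07, edgeR with Benjamini-Hochberg adjustment), rank 215 of 12958 from the top, and stood 2.48-fold above BSA with PA + C3G (adjusted p = 4.85e-07, edgeR). The PA + C3G versus PA ratio was not called, with a 95% interval of 0.861 to 1.04 (adjusted p = 0.415, edgeR).

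Slc25a20, the inner-membrane carnitine-acylcarnitine translocase (ENSRNOG00000020288, chromosome 8, 117455262 to 117476734, plus strand), was at 23.9, 24.7 and 24.5 FPKM in BSA, 54.7, 54.7 and 55.9 in PA, and 52.9, 48.9 and 54.3 in PA + C3G. Every PA library more than doubled the highest BSA library. In FPKM the PA + C3G libraries lay just under the PA libraries without overlap, the highest at 54.3 against 54.7 for the lowest PA library. Whether this narrow gap holds under the TMM scaling of the fold changes was not tested. The rise with PA was 2.30-fold (log2 1.20, SE 0.0449, adjusted p = 5.76e-08, edgeR), and 2.23-fold for PA + C3G versus BSA (adjusted p = 2.15e-07, edgeR). C3G beside PA left a ratio of 0.905 to 1.04 (95% interval, adjusted p = 0.515, edgeR), which was called lower only when each library was scaled by its FPKM sum in place of TMM (log2 −0.14, adjusted p = 0.0454, edgeR).

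Cpt2, the matrix-side carnitine palmitoyltransferase (ENSRNOG00000012443, chromosome 5, 127505614 to 127523089, minus strand), went the other way. It was at 45.7, 50.4 and 49.8 FPKM in BSA, 32.7, 34.5 and 33.8 in PA, and 39.3, 43.6 and 40.5 in PA + C3G, so that the 3 groups formed 3 separate ranges with PA + C3G in the middle. Cpt2 fell to 0.704 of its BSA level with PA (log2 −0.51, SE 0.0537, adjusted p = 3.71e-05, edgeR) and was 1.25-fold higher with PA + C3G than with PA (log2 0.33, adjusted p = 0.00311, edgeR). PA + C3G remained below BSA (log2 −0.18, adjusted p = 0.0248, edgeR), a call that was lost without BSA replicate 2 (adjusted p = 0.0606), BSA replicate 3 (0.067), PA + C3G replicate 1 (0.0674) or PA + C3G replicate 3 (0.0685). Within each library, the ratio of Cpt1a to Cpt2 in FPKM was 0.271 ± 0.0223 in BSA, 1.01 ± 0.0878 in PA and 0.763 ± 0.0898 in PA + C3G (SD, n = 3). That of Slc25a20 to Cpt2 was 0.501 ± 0.0189, 1.64 ± 0.0445 and 1.27 ± 0.128.

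Acadvl and Acadm, acyl-CoA dehydrogenases that carry out the first step of each cycle, differed at most 1.26-fold in the 3 comparisons. Acadvl, which takes very long chains (ENSRNOG00000018114, chromosome 10, 56619303 to 56624526, minus strand), was at 39.5, 38.3 and 37.7 FPKM in BSA, 39.3, 40.4 and 40.6 in PA, and 46.0, 46.0 and 47.4 in PA + C3G. The BSA and PA libraries overlapped, and the PA + C3G libraries lay above both groups. Acadvl was 1.19-fold higher with PA + C3G than with PA (log2 0.25, SE 0.0355, adjusted p = 0.00162, edgeR) and 1.26-fold higher than with BSA (adjusted p = 6.75e-05, edgeR), while PA alone was not called (log2 0.08, adjusted p = 0.0714, edgeR) except under scaling by the FPKM sum (log2 0.11, adjusted p = 0.0322). It contains Mir324 on the opposite strand, 89 bases at 0.974 FPKM, and whether the counting used strand is not given in the sources used here.

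Acadm, which takes medium chains (ENSRNOG00000009845, chromosome 2, 260124418 to 260148589, minus strand), was at 15.1, 16.2 and 13.7 FPKM in BSA, 17.3, 17.4 and 17.7 in PA, and 15.5, 14.8 and 15.5 in PA + C3G. The PA libraries lay above the other 6, and the BSA and PA + C3G libraries overlapped. The rise with PA was 1.19-fold (log2 0.25, SE 0.0670, adjusted p = 0.0121, edgeR) and was lost without BSA replicate 3 (log2 0.18, adjusted p = 0.051, edgeR). PA + C3G versus PA was not called (log2 −0.15, adjusted p = 0.136, edgeR) except under scaling by the FPKM sum (log2 −0.24, adjusted p = 0.0234), nor was PA + C3G versus BSA (adjusted p = 0.326, edgeR). The ratio of Acadvl to Acadm in FPKM was 2.58 ± 0.198 in BSA, 2.30 ± 0.0231 in PA and 3.04 ± 0.0745 in PA + C3G (SD, n = 3).

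The partner subunits of the trifunctional protein moved in opposite directions with PA. Hadha, the hydratase and dehydrogenase subunit (ENSRNOG00000024629, chromosome 6, 27589657 to 27629175, plus strand), was at 79.7, 80.1 and 84.6 FPKM in BSA, 66.8, 69.5 and 70.0 in PA, and 70.8, 71.2 and 70.5 in PA + C3G. All BSA libraries lay above all libraries with PA. Hadha fell to 0.859 of its BSA level with PA (log2 −0.22, SE 0.0364, adjusted p = 0.000711, edgeR) and stayed lower with PA + C3G (log2 −0.14, adjusted p = 0.0134, edgeR). The PA + C3G libraries also lay above the PA libraries, but this step was not called (log2 0.08, 95% interval −0.00249 to 0.161, adjusted p = 0.159, edgeR) and turned to −0.01 under scaling by the FPKM sum.

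Hadhb, the thiolase subunit (ENSRNOG00000010800, chromosome 6, 27555412 to 27582995, minus strand), was at 74.6, 75.4 and 76.1 FPKM in BSA, 91.4, 87.1 and 94.2 in PA, and 75.5, 69.8 and 76.4 in PA + C3G. The PA libraries lay above the other 6, which overlapped. Hadhb rose 1.23-fold with PA (log2 0.29, SE 0.0434, adjusted p = 0.000333, edgeR) and with PA + C3G was 0.834 of its PA level (log2 −0.26, adjusted p = 0.00317, edgeR). PA + C3G and BSA were not called apart (log2 0.03, adjusted p = 0.598, edgeR), and the sign of that small difference turned under scaling by the FPKM sum and with limma on FPKM.

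The ratio of Hadha to Hadhb within a library was 1.07, 1.06 and 1.11 in BSA, 0.732, 0.798 and 0.744 in PA, and 0.937, 1.02 and 0.923 in PA + C3G. The 3 groups did not overlap, and PA + C3G lay between the other groups. In all 3 comparisons the two-sided exact permutation test on this ratio gave p = 0.1, the smallest that 3 against 3 libraries allow, and the same p came from each of the 5 ratios computed. Of 448 RefSeq gene pairs that, like Hadha and Hadhb, faced away from each other within 1000 bases and were both tested, 125 had both genes called with PA, and 47 of these (37.6%) moved in opposite directions. The interval printed above lies between the RefSeq start sites, whereas in the authors' table, whose genome build is not given in the sources used here, the ends of these genes were 6661 bases apart.

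**Figure D3:**
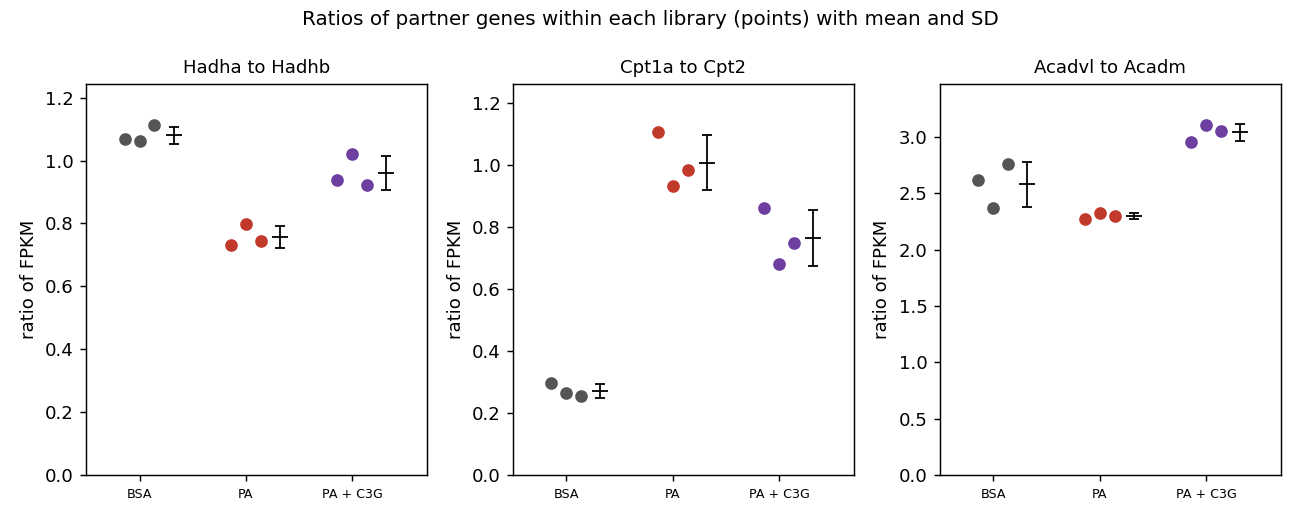
Ratio of FPKM within each library (y axis, linear from 0) for Hadha to Hadhb, Cpt1a to Cpt2 and Acadvl to Acadm in the 3 libraries (points) of each group, with mean and SD. The first ratio is lowest with PA (0.758 ± 0.0354), the second lowest with BSA (0.271 ± 0.0223) and the last highest with PA + C3G (3.04 ± 0.0745).

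Acaa2, the mitochondrial thiolase that releases acetyl-CoA (ENSRNOG00000013766, chromosome 18, 70733872 to 70762395, plus strand), had the highest rank of the 9 genes. It was at 27.4, 27.2 and 27.6 FPKM in BSA, 68.4, 71.1 and 73.0 in PA, and 72.2, 70.7 and 72.6 in PA + C3G. The BSA libraries lay far below the rest, and the PA + C3G range fell inside the PA range. Acaa2 rose 2.63-fold with PA (log2 1.39, SE 0.0372, adjusted p = 1.13e-08, edgeR), rank 213 of 12958, and stood 2.74-fold above BSA with PA + C3G (log2 1.45, adjusted p = 5.77e-08, edgeR), rank 104. With C3G beside PA the ratio had a 95% interval of 0.983 to 1.10 (adjusted p = 0.305, edgeR), and its sign turned under scaling by the FPKM sum (log2 −0.03). Relative to Hadhb, the other thiolase, Acaa2 went from 0.364 ± 0.00357 in BSA to 0.780 ± 0.0341 in PA and 0.974 ± 0.0343 in PA + C3G (SD, n = 3).

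Etfdh, which passes electrons from the dehydrogenases to ubiquinone (ENSRNOG00000009538, chromosome 2, 178367549 to 178389608, minus strand), was at 22.7, 24.7 and 25.0 FPKM in BSA, 31.8, 33.3 and 32.5 in PA, and 30.2, 31.3 and 31.2 in PA + C3G. All BSA libraries lay below all others. In FPKM the PA + C3G range lay just under the PA range, 31.3 against 31.8, and whether this narrow gap holds under TMM was not tested. Etfdh rose 1.37-fold with PA (log2 0.45, SE 0.0471, adjusted p = 3.25e-05, edgeR) and was 1.33-fold above BSA with PA + C3G (adjusted p = 9.88e-05, edgeR). C3G beside PA was not called (log2 −0.04, adjusted p = 0.63, edgeR).

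Pdk4, the PPAR-responsive pyruvate dehydrogenase kinase (ENSRNOG00000009565, chromosome 4, 30546664 to 30556814, minus strand), was the 1 member that did not pass the filter. It was listed at 0 counts in all 3 BSA libraries, at 4, 0 and 2 counts in PA, and at 6, 2 and 0 in PA + C3G, or at most 0.0518 FPKM. A library at 0 allows up to 3 counts, so that most of these values cannot be told from 0, and neither a fold change nor a gene of similar pattern is given.

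The pattern of Cpt1a, its log2(FPKM + 1) in the 9 libraries less its own BSA mean, was most closely matched among the tested genes by Selenos (mean absolute difference 0.0527), Man1c1 (0.0547), Calr (0.0596), Ctsd (0.0675) and Ephx1 (0.0725). Selenos, for example, was at a mean of 51.2 FPKM in BSA, 133.7 in PA and 114.3 in PA + C3G, and Calr at 325.8, 792.3 and 765.7. Slc25a20 and Acaa2 were the nearest of the 9 expressed members, both at 0.107, followed by Etfdh at 0.605, and Cpt2 was farthest at 1.11.

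Among 18 further genes of mitochondrial beta-oxidation that were in the table and tested, 10 rose and 2 fell with PA (all genes, 25.8% and 25.2%), with a median log2 change of 0.21 (all genes, 0.00). The largest fall was in Hadh, the short-chain hydroxyacyl-CoA dehydrogenase that is abundant in beta cells, which went from 142.2 ± 6.89 FPKM in BSA to 64.3 ± 5.00 in PA and 91.8 ± 2.47 in PA + C3G (SD, n = 3). It fell to 0.460 of BSA with PA (adjusted p = 4.84e-07, edgeR) and was 1.46-fold higher with PA + C3G than with PA (adjusted p = 0.000454, edgeR). Acot2, a mitochondrial acyl-CoA thioesterase, rose 4.44-fold with PA, from 1.27 ± 0.149 to 5.57 ± 0.621 FPKM (adjusted p = 1.95e-06, edgeR), and was lower with PA + C3G than with PA at 2.99 ± 0.360 FPKM (adjusted p = 0.00304, edgeR). Its near-identical paralog Acot1 makes the split of reads between them uncertain. Etfb, a subunit of the electron acceptor of the dehydrogenases, rose 1.37-fold (adjusted p = 0.000106, edgeR). Acad11, another acyl-CoA dehydrogenase, rose 2.56-fold (adjusted p = 9.97e-06, edgeR). Cpt1b, the muscle-type isoform, was at 4.54 ± 0.658, 4.26 ± 0.128 and 4.02 ± 0.212 FPKM in BSA, PA and PA + C3G, with adjusted p-values of 0.634 for PA versus BSA, 0.806 for PA + C3G versus PA and 0.446 for PA + C3G versus BSA (edgeR). With C3G beside PA, 3 of the 18 were higher and 2 lower (all genes, 11.1% and 10.2%). The split became 1 and 3 under scaling by the FPKM sum, which also shifted calls over all genes toward lower. Acad11 was among the lower (adjusted p = 0.0162, edgeR), a call lost without PA replicate 2, PA + C3G replicate 1 or PA + C3G replicate 3.

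Of 7 tested genes that set malonyl-CoA, 2 rose and 1 fell with PA (all genes, 25.8% and 25.2%), with a median log2 change of −0.08, so that no larger a share was called than among all genes (51%). Mlycd, malonyl-CoA decarboxylase, rose from 8.27 ± 0.141 to 12.4 ± 0.266 FPKM (adjusted p = 0.000105, edgeR), and Acaca, the main acetyl-CoA carboxylase, rose from 17.5 ± 1.07 to 20.3 ± 0.743 (adjusted p = 0.00321, edgeR). Prkaa2, a catalytic subunit of AMP-activated protein kinase, fell from 34.7 ± 1.96 to 16.5 ± 0.548 FPKM (adjusted p = 4.75e-07, edgeR) and was at 15.0 ± 0.805 with PA + C3G. Prkaa1, the other catalytic subunit, was at 18.0 ± 0.220 in BSA and 16.7 ± 1.04 in PA (adjusted p = 0.197, edgeR). Acacb, the carboxylase at the outer mitochondrial membrane, stayed under the filter at 0.165 ± 0.0476, 0.498 ± 0.0103 and 0.241 ± 0.0385 FPKM. In the fit without a filter it was 3.05-fold higher with PA than with BSA (adjusted p = 0.000271, edgeR) and lower with PA + C3G than with PA (adjusted p = 0.0167, edgeR). With C3G beside PA, only Acaca of the 7 was called, lower (adjusted p = 0.0238, edgeR), where 21.2% of all genes were called, 10.2% lower. Under scaling by the FPKM sum 5 of the 7 were lower, and calls over all genes shifted toward lower as well. The Acaca call was lost without PA replicate 1, PA replicate 3, PA + C3G replicate 1 or PA + C3G replicate 3.

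Of 9 tested transcription factors and coactivators of oxidation, 5 rose and 2 fell with PA (all genes, 25.8% and 25.2%), with a median log2 change of 0.36. Ppargc1a, the coactivator PGC-1α, rose 4.16-fold from 1.07 ± 0.317 to 4.40 ± 0.885 FPKM (adjusted p = 4.54e-05, edgeR), and Lpin1, a phosphatidate phosphatase that also acts as a coactivator, rose 1.94-fold from 15.2 ± 0.648 to 28.9 ± 0.751 (adjusted p = 3.38e-07, edgeR). Esrra, the estrogen-related receptor α, rose 1.76-fold (adjusted p = 7.36e-05, edgeR). Foxo1 fell from 23.0 ± 0.808 to 15.4 ± 0.288 FPKM (adjusted p = 1.67e-05, edgeR). With C3G all 4 lay between BSA and PA. Ppargc1a at 2.23 ± 0.143, Lpin1 at 20.2 ± 0.849 and Esrra at 34.9 ± 3.57 FPKM were lower than with PA (adjusted p = 0.014, 0.000314 and 0.0372, edgeR) and Foxo1 at 18.0 ± 1.08 was higher (adjusted p = 0.00732, edgeR). The Ppargc1a call was lost without PA replicate 1 (adjusted p = 0.0502), and the Esrra call in 6 of 19 alternatives. Ppara, the receptor itself, was under the filter at 0.598 ± 0.0906, 1.17 ± 0.224 and 0.776 ± 0.212 FPKM and was 1.98-fold higher with PA in the fit without a filter (adjusted p = 0.014, edgeR). In the whole list 3 were higher and 4 lower with C3G beside PA (all genes, 11.1% and 10.2%). Under scaling by the FPKM sum these counts were 2 and 5, and calls over all genes also shifted toward lower.

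Among 8 tested PPAR targets outside the 10 genes, 5 rose and 2 fell with PA (all genes, 25.8% and 25.2%), with a median log2 change of 0.58. Fabp3, a fatty acid carrier, rose 2.98-fold from 3.60 ± 1.35 to 10.6 ± 1.22 FPKM (adjusted p = 0.000468, edgeR) and was at 10.4 ± 1.45 with PA + C3G. Ucp2, the uncoupling protein of beta cells, fell from 342.5 ± 1.54 to 246.4 ± 4.08 FPKM (adjusted p = 8.54e-06, edgeR) and was at 288.9 ± 13.4 with PA + C3G, higher than with PA (adjusted p = 0.00168, edgeR). Angptl4, which was named after its values were seen and stayed under the filter, had 0, 0 and 4 counts in BSA, 122, 125 and 73 in PA and 77, 89 and 80 in PA + C3G.

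Peroxisomal beta-oxidation, which shortens very long chains, had 4 higher and 2 lower of 9 tested genes with PA (all genes, 25.8% and 25.2%), with a median log2 change of 0.15. Acox3, an oxidase of branched chains, rose 1.51-fold (adjusted p = 9.6e-05, edgeR), whereas Scp2, which holds the thiolase step, was not called with PA (adjusted p = 0.27, edgeR). Acaa1a, a peroxisomal thiolase, had a log2 change of 0.15 with PA (adjusted p = 0.0495, edgeR), a call kept in 3 of 19 alternatives. With C3G beside PA, 3 of the 9 genes were higher and 1 lower (all genes, 11.1% and 10.2%). Scaling by the FPKM sum gave 0 and 3, and calls over all genes also shifted toward lower under it. The lower gene under TMM was Acox3 (adjusted p = 0.0179, edgeR), and that call was lost without PA replicate 2, PA replicate 3 or PA + C3G replicate 3.

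Of 3 tested carnitine supply genes, Slc22a5, the plasma membrane carnitine transporter, was at 5.07 ± 0.361 FPKM in BSA and 5.72 ± 0.142 in PA (adjusted p = 0.0406, edgeR, kept in 10 of 19 alternatives). Tmlhe, the first enzyme of carnitine synthesis, fell from 14.7 ± 1.24 to 11.9 ± 0.592 (adjusted p = 0.0151, edgeR), a call lost without PA replicate 2. Aldh9a1, a later enzyme of the same route, was not called (adjusted p = 0.116, edgeR), and between PA + C3G and PA the adjusted p-values of the 3 were 0.279, 0.152 and 0.899 (edgeR).

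Around pyruvate dehydrogenase, where PDK4 acts, 3 of 11 tested genes rose and 4 fell with PA (all genes, 25.8% and 25.2%), with a median log2 change of −0.03. Pdha1, a catalytic subunit, rose from 38.8 ± 1.73 to 58.9 ± 2.21 FPKM (adjusted p = 2.04e-05, edgeR) and was lower with PA + C3G than with PA at 46.3 ± 3.36 (adjusted p = 0.00666, edgeR). Pcx, pyruvate carboxylase, fell from 20.6 ± 1.28 to 13.1 ± 0.319 (adjusted p = 2.55e-05, edgeR), and its higher level with PA + C3G than with PA (adjusted p = 0.0247, edgeR) was kept in 11 of 19 alternatives. The expressed kinases were Pdk1, Pdk2 and Pdk3. Pdk3 fell from 18.0 ± 1.66 to 10.7 ± 0.310 FPKM (adjusted p = 4.71e-05, edgeR), and Pdp1, an opposing phosphatase, from 14.9 ± 0.838 to 9.39 ± 0.873 (adjusted p = 0.000447, edgeR). Pdk1 was at 20.3 ± 1.91 and 17.2 ± 0.612 FPKM, just outside the threshold (adjusted p = 0.0508, edgeR, called in 9 of 19 alternatives), and Pdk2 at 8.86 ± 0.741 and 8.87 ± 0.893 (adjusted p = 0.87, edgeR). With C3G beside PA, 1 of the 11 genes was higher and 3 were lower (all genes, 11.1% and 10.2%). Under scaling by the FPKM sum 0 were higher and 3 lower, and calls over all genes also shifted toward lower.

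Of 4 tested ketone body genes, 2 rose and 1 fell with PA (all genes, 25.8% and 25.2%). Oxct1, which activates ketone bodies, rose from 64.6 ± 3.27 to 83.5 ± 2.10 FPKM (adjusted p = 8.15e-05, edgeR), and Bdh1, the hydroxybutyrate dehydrogenase, fell from 24.5 ± 0.504 to 20.7 ± 0.474 (adjusted p = 0.00948, edgeR). Acat1, the acetoacetyl-CoA thiolase, was not called (adjusted p = 0.943, edgeR). Oxct1 was lower with PA + C3G than with PA at 70.4 ± 2.62 FPKM (adjusted p = 0.0127, edgeR).

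**Figure D4:**
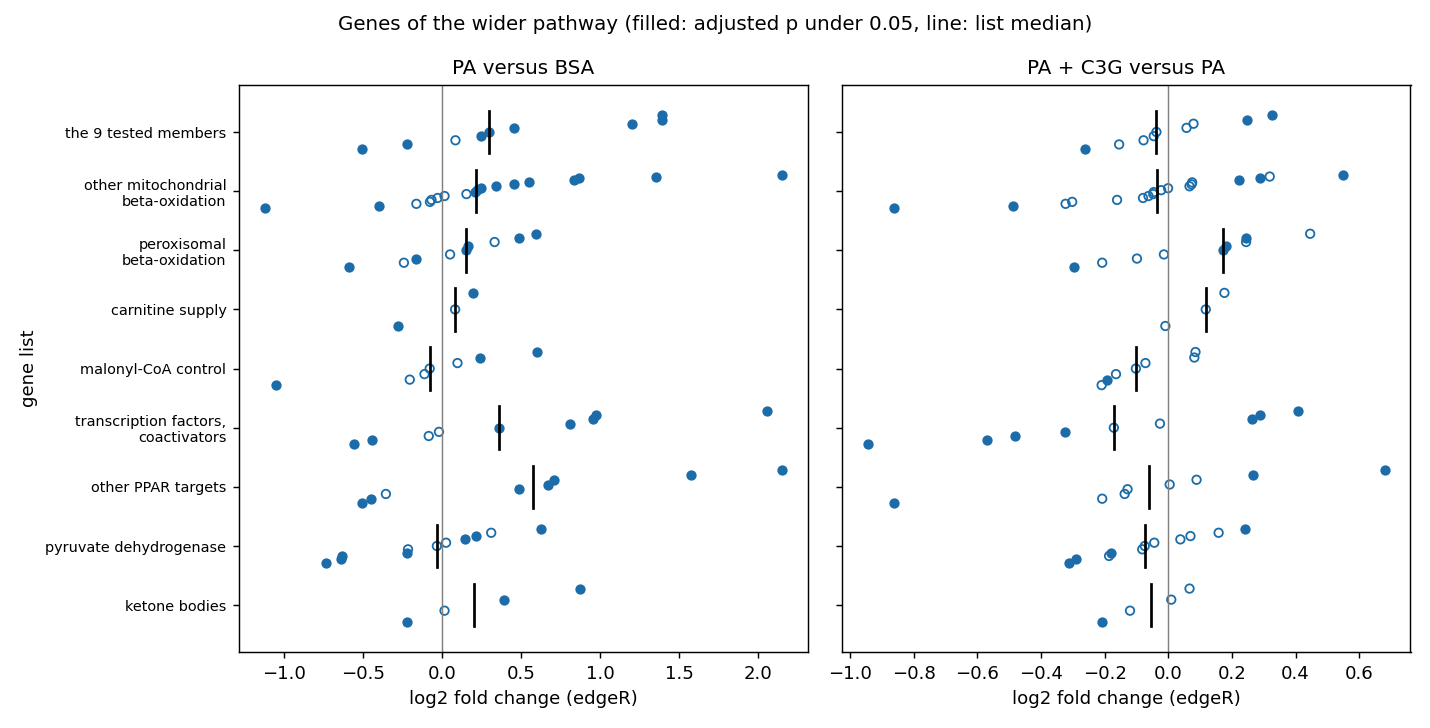
Log2 fold change (x axis, edgeR) of each tested gene (points, filled where the adjusted p-value was under 0.05) in the 9 members and 8 wider lists (rows), with the list median as a line, for PA versus BSA on the left and PA + C3G versus PA on the right. The member median is 0.29 on the left and −0.04 on the right, where the x axis spans a narrower range.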

How the data were processed

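RNA-seq of INS-1E cells gave 9 libraries, 3 per group. The authors deposited estimated counts per gene, not normalized, and FPKM, scaled to gene length and mapped fragments, for 20645 genes. The submitters' processing notes name cutadapt 1.9, HISAT2 2.0.4, StringTie 1.3.4d, DESeq2 and edgeR. The genome build and the use of strand in counting are not given in the sources used here. Values of 4 counts were 2.44 times as frequent as the mean of 3 and 5, so sampling error may be larger than the totals of 45559993 to 66730721 per library imply, and intervals cover the fitted spread only. Pearson's r between libraries, on log2(FPKM + 1) across genes, was 0.981 to 0.985 within groups and 0.943 to 0.977 across groups.

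Groups came from the sample titles, and the BSA of the controls and the PA given with C3G from the study's methods. Deposited counts were whole numbers, used as they stand, TMM-normalized and tested with edgeR 4.0.16 in R 4.3.3 over 12958 genes (FPKM averaging 1 or more), with Benjamini-Hochberg adjustment over all of them. SE was |log2 fold change| divided by the square root of F. Genes under the filter were also fitted without it. Ratios were tested by two-sided exact permutation. The procedure was tested on simulated data. The members, lists and tests were chosen with earlier results of these data known. Genes named were the 10 members, up to 4 genes per list by smallest p, and Ppara, Acacb, Cpt1b, Pdk1 and Pdk2, plus the 5 genes closest in pattern to Cpt1a. Some genes, such as Acot2 and Acat1, sit in 2 lists, and some genes the rule selects are not reported here. Pcx is listed as Pc. DESeq2 1.42.0 was tried as an alternative, as were edgeR with median-ratio size factors, scaling by the FPKM sum, limma 3.58.1 on log2(FPKM + 1) and log2(FPKM + 0.1), an FPKM minimum of 5 or none, a fit of the compared groups alone, counts divided by 4, the replicate number as a block, and leaving out each library. Promoter windows are RefSeq's (GRCr8), matched by symbol for 9 of 10 genes.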

Additional observations from a re-analysis of the deposited data

How the results depend on the processing

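The counts of called genes and members and the fold changes of the 9 tested members were recomputed under 19 alternatives. Other named genes with a mean FPKM under 5 had 18, the counts in the wider lists were recomputed under 3, and the ratios, pattern matches and gene pairs under none. The number of members called ranged from 7 to 9 for PA versus BSA (7 to 8 with a library left out) and from 6 to 7 for PA + C3G versus BSA (6 to 7 with a library left out). For PA + C3G versus PA it was 3 with any library left out and 5 under scaling by the FPKM sum, where Slc25a20 and Acadm joined the lower genes. That scaling moved the median of all genes by −0.09 in this comparison, and calls over all genes went from 2752 (1436 higher, 1316 lower) to 3323 (775 higher, 2548 lower). With a library left out, the calls over all genes ranged from 1718 (without PA replicate 3, the cause was not tested) to 2838. For PA + C3G versus BSA the split went from 2462 higher and 2321 lower to 1876 and 3066. Scaling by the FPKM sum reversed the small, uncalled PA + C3G versus PA changes of Hadha (−0.01079) and Acaa2 (−0.03284), and the uncalled PA + C3G versus BSA change of Hadhb was reversed by it (−0.02867) and by limma with pseudocounts of 1 (−0.02936) and 0.1 (−0.02973). The calls of Cpt1a, Slc25a20, Cpt2, Hadha, Hadhb, Acaa2 and Etfdh between PA and BSA, and of Cpt2, Acadvl and Hadhb between PA + C3G and PA, held under all 19.

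The groups share replicate numbers, but nothing in the labels ties equal numbers together. Deviations of same-numbered libraries from their group means correlated across genes at −0.0473 to 0.105, with 5 of 9 libraries correlating best with their own number. A correlation across all genes cannot show a tie carried by a part of them, which was not tested. With the replicate number as a block, 6843 genes were called for PA versus BSA, 3118 for PA + C3G versus PA and 5058 for PA + C3G versus BSA, against 6614, 2752 and 4783, and the calls of the members were the same.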
